A study of Drosophila melanogaster with 4 samples.

Results

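The RNAs described here are the sequence tags of 24 to 29 nt that begin with T, the size and first base by which Piwi-interacting RNAs (piRNAs) are usually picked out of a small RNA library. Of 11923 tags of 24 to 29 nt in the 4 tables, 3430 were free of undetermined bases and began with T. Of these, 292 shared an exact stretch of 15 bases with the 30 nt tag that had the most reads over all tables and were left out. The remaining 3138 tags, of 252353 distinct tags in all, are the members. First base and length therefore come from the choice of the tags. Base 10, partners on the opposite strand, the concentration of reads in single tags and the level in each genotype were not used for it. Leaving tags out nevertheless changes the level in each genotype, as given below.

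Male larvae of Drosophila melanogaster in the third instar were sampled in groups of 50, and small RNA was sequenced from 2 libraries of males that express double-stranded RNA of the 1.688 satellite from a snapback construct (snapback) and from 2 libraries of males of the laboratory strain yw (yw). The labels name neither the promoter of the construct nor its insertion, they do not say that the snapback males are otherwise yw, and they do not state whether libraries of 1 genotype were grown apart. The p-values below therefore cover only the spread among these libraries, which may be technical. Whole larvae hold mostly somatic tissue, and fewer cells of a type cannot be told apart from less RNA per cell. The snapback tables held 5330415 and 7782397 listed reads for replicates 1 and 2, and the yw tables held 20453996 and 15183229. A tag is listed only from 4 reads, which is 0.750 and 0.514 reads per 1000000 listed reads (RPM) in snapback and 0.196 and 0.263 RPM in yw, so the yw tables reach rarer tags. Reads were not collapsed to molecules, and intervals and limits below cover counting error only.

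One fact about the libraries touches every comparison of the genotypes. The 40 nt tags, the longest listed, carried different repeated 10-mers in each genotype and, in part, in each yw library. The most frequent 10-mer of the snapback libraries was in 67.7% and 51.8% of their 40 nt tags and in 0% of those of yw. The most frequent one of yw replicate 1 was in 0.332% and 0.246% of the 40 nt tags of snapback and in 75.3% and 20.7% of those of yw. The most frequent one of yw replicate 2 was in 0% of the 40 nt tags of snapback and in 2.30% and 29.7% of those of yw. Tags of 40 nt took 4.98% and 4.18% of listed reads in snapback, and 14.6% and 39.8% in yw. Genotype and library preparation therefore cannot be told apart in the levels given here.

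piRNAs guide PIWI proteins to transposon and repeat transcripts, mainly in the germ line, and in Drosophila testes they are known for silencing the Stellate repeats. Primary piRNAs tend to begin with uridine, read as T. In the ping-pong cycle, PIWI proteins cut target RNAs opposite base 10 of the guide, so that the new piRNA overlaps its guide by 10 bases at the 5′ ends and tends to carry adenine at its own base 10. These are the features looked for below. The tags carry no coordinates, and their sequences are not shown here. They are numbered T1, T2 and so on by decreasing mean RPM over both genotypes.

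The summed level of the members was 8981 and 7691 RPM in snapback and 5789 and 3717 RPM in yw. All values in snapback lay above those in yw, with a snapback mean of 8336 ± 912 RPM and a yw mean of 4753 ± 1465 RPM (SD, n = 2 each), a ratio of 1.75. Exact 95% (Clopper-Pearson) intervals were 8901 to 9061 and 7630 to 7753 RPM in snapback, and 5756 to 5822 and 3687 to 3748 RPM in yw, so the libraries of a group differed by more than counting error. No p-value is given for the sum, and 2 libraries against 2 could not reach an exact two-sided permutation p below 0.33.

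The direction of this difference depended on what the members were set against. Against all reads of 18 to 30 nt, the members made up 1.80% and 1.61% in snapback and 2.00% and 1.74% in yw, ranges that overlap. Against the same reads without those that share a stretch with the dominant 30 nt tag, they made up 9.26% and 8.83% in snapback and 2.06% and 1.82% in yw, a ratio of 4.66. The dominant 30 nt tag alone held 36.5% and 35.5% of listed reads in snapback, against 0.752% and 0.703% in yw. The 292 tags left out of the members for a stretch shared with it held 7896 and 7947 RPM in snapback and 311 and 297 RPM in yw. Tags of 24 to 29 nt with another first base went the other way, at 15716 and 13339 RPM in snapback and 27294 and 29673 RPM in yw. Among reads of 24 to 29 nt, 36.4% and 36.6% belonged to members in snapback, against 17.5% and 11.1% in yw.

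**Figure D1:**
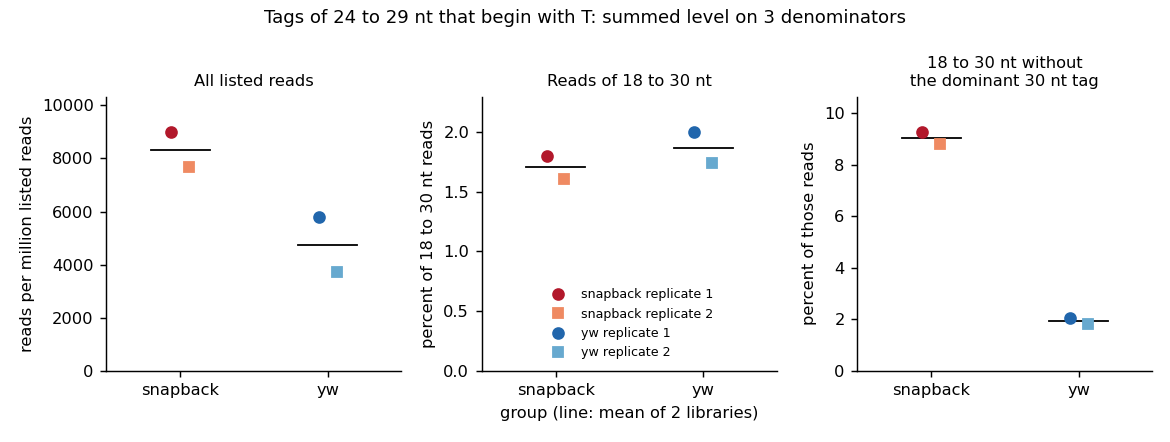
Summed level of the 24 to 29 nt tags that begin with T in each library (points) with the group mean (line), as RPM, as percent of 18 to 30 nt reads, and as percent of these without reads related to the dominant 30 nt tag. The snapback libraries lie above the yw libraries in the left and right panels, and the groups overlap in the middle panel at 1.80% and 1.61% against 2.00% and 1.74%.

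The gap was much smaller when each tag was counted once. Members were 29.4% and 32.5% of the distinct 24 to 29 nt tags in snapback, and 28.98% and 23.97% of those in yw. The T-first share of distinct tags was higher at 22 nt, at 38.1% and 36.4% in snapback and 42.2% and 43.1% in yw. T was thus not the first base of most distinct tags of piRNA size in any library. By reads T led the first bases in snapback, at 8981 and 7691 RPM, against at most 5307 and 5594 RPM for another base. In yw, A led by reads, at 11950 and 16255 RPM.

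The tables shared few of these tags, and the shared ones held most of the reads. There were 764 and 1072 members listed in snapback and 1870 and 1005 in yw. Of the 3138 members, 154 were listed in all 4 libraries, 343 in both snapback libraries and neither of yw, 496 in both yw libraries and neither of snapback, and 1986 in a single library. The 154 common tags carried 80.6% and 74.1% of member reads in snapback, and 70.0% and 56.6% in yw. Most members were rare, with a median of 8 reads in each snapback library and of 7.5 and 8 reads in yw.

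The length profile had its peak at 24 nt, the lower edge of the window. Tags of 24 nt made up 50.1% and 50.6% of member reads in snapback and 75.4% and 60.8% in yw. They were also the most frequent among distinct members, at 28.3% and 28.7% in snapback and 38.2% and 35.3% in yw. Followed from 18 to 34 nt, reads that begin with T were most abundant at 22 nt in every library except snapback replicate 2, which had 8301 RPM at 23 nt and 7956 RPM at 22 nt. Distinct tags peaked at 21 nt in all 4 libraries and fell from there to 27 nt, so no peak stood between 24 and 27 nt. In snapback replicate 1 they numbered 97, 117 and 71 at 27, 28 and 29 nt, so that 28 nt stood slightly above its neighbours there.

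**Figure D2:**
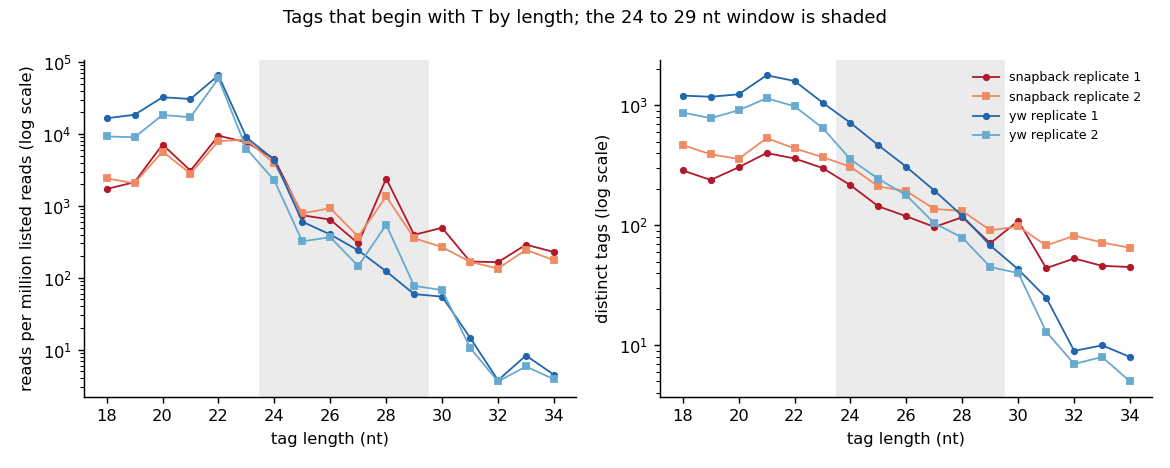
Tags that begin with T at each length from 18 to 34 nt, as RPM (left, log scale) and as number of distinct tags (right, log scale), in the 4 libraries, without tags related to the dominant 30 nt tag. Reads fall steeply from 22 to 25 nt in yw, and a rise at 28 nt appears in snapback and in yw replicate 2.

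Reads were higher at 28 nt than at 27 and 29 nt in 3 libraries. There they reached 2399 and 1353 RPM in snapback, and 123 and 547 RPM in yw. In snapback most of the rise was a single tag, T3, with 77.5% and 65.2% of the 28 nt reads of members. In yw replicate 2 it was led by T14, at 26.7% of the 28 nt reads, which the other libraries did not list. Without the leading tag of each library, members of 28 nt held 539 and 471 RPM in snapback and 108 and 401 RPM in yw.

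The mean length over member reads was 25.6 and 25.4 nt in snapback, against 24.5 and 25.1 nt in yw. Members of 25 nt or more held 49.9% and 49.4% of member reads in snapback and 24.6% and 39.2% in yw. Over distinct tags they made up 71.7% and 71.3% in snapback and 61.8% and 64.7% in yw, so the snapback tags were longer by either count. Without the leading member of each library, the mean lengths were 24.99 and 25.8 nt in snapback and 24.8 and 25.8 nt in yw, which overlap.

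Adenine at base 10, the mark of ping-pong products, was no more frequent than at most other positions. It was found in 18.1% and 18.9% of distinct members in snapback and in 26.3% and 25.7% in yw. The share at the other positions from 2 to 24 had medians of 23.3% and 22.3% in snapback and 26.7% and 26.2% in yw. Base 10 lay below 20 and 17 of the 22 other positions in snapback, and below 14 and 14 of them in yw. Guanine was the most frequent base at position 10 in distinct members, at 37.2% and 32.9% in snapback and 35.1% and 35.2% in yw.

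The difference was smaller over groups of related tags. With all members that share their first 20 bases counted once, the difference, snapback minus yw, was -3.40 percentage points, against -7.49 over all distinct members. By reads, adenine at base 10 made up 8.04% and 8.58% in snapback and 26.1% and 13.997% in yw. T4, which has adenine at base 10, held 62.9% of these reads in yw replicate 1. Tags of other first bases showed 17.4% and 17.8% in snapback and 21.1% and 23.6% in yw over distinct tags. The members with both T at base 1 and adenine at base 10 numbered 749 and held 722 and 660 RPM in snapback and 1509 and 520 RPM in yw.

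**Figure D3:**
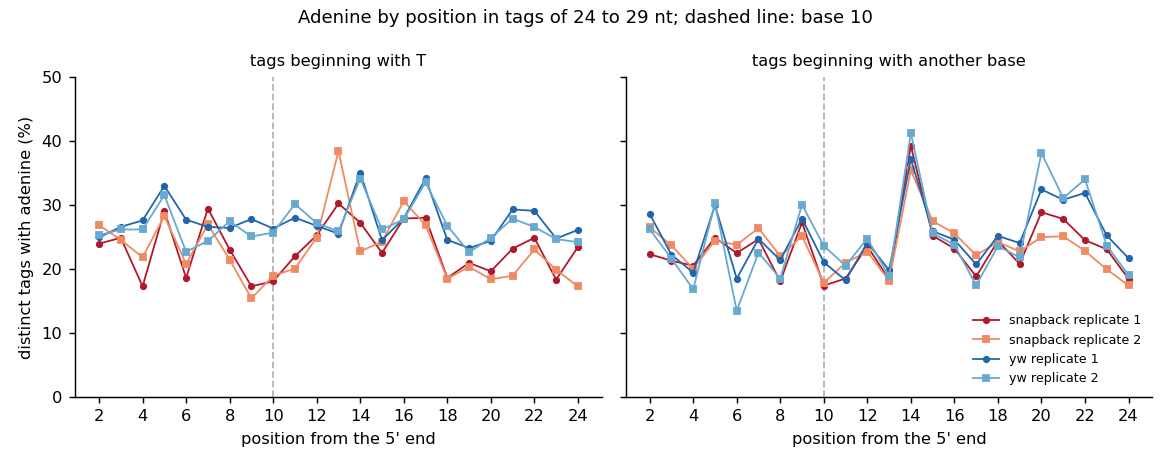
Percent of distinct 24 to 29 nt tags with adenine at each position from 2 to 24, for tags that begin with T (left) and with another base (right), in the 4 libraries. At base 10 (dashed line) the tags that begin with T stand at 18.1% and 18.9% in snapback and 26.3% and 25.7% in yw, with no peak there.

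Opposite-strand partners at the ping-pong distance were rare. A partner was counted when its first 10 bases were the exact reverse complement of the first 10 bases of a member in the same library. Such a match can arise by chance, and the longer overlaps below, read the same way, serve for comparison. A match was found for 3 of 764 and 3 of 1072 members in snapback, and for 6 of 1870 and 0 of 1005 in yw. The shares were 0.393% and 0.280% in snapback and 0.321% and 0% in yw, where 0 of 1005 allows up to 0.299%. Members with a partner carried 21 and 27 reads in snapback and 51 and 0 reads in yw.

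An overlap of 10 was not the most frequent one. Overlaps of 11 to 20 bases were read by the same number of matching partner bases, so all overlaps were read with the same match length. They gave on average 1.0 and 1.0 members per overlap in snapback and 3.2 and 0.8 in yw. The highest single counts among them were 4 and 4 in snapback, both at an overlap of 19, and 11 at an overlap of 11 in yw replicate 1 and 4 at an overlap of 19 in yw replicate 2. With partners from any of the 4 libraries, 15 of the 3138 members had one at an overlap of 10, against a mean of 9.4 and a maximum of 20 at overlaps of 11 to 20.

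**Figure D4:**
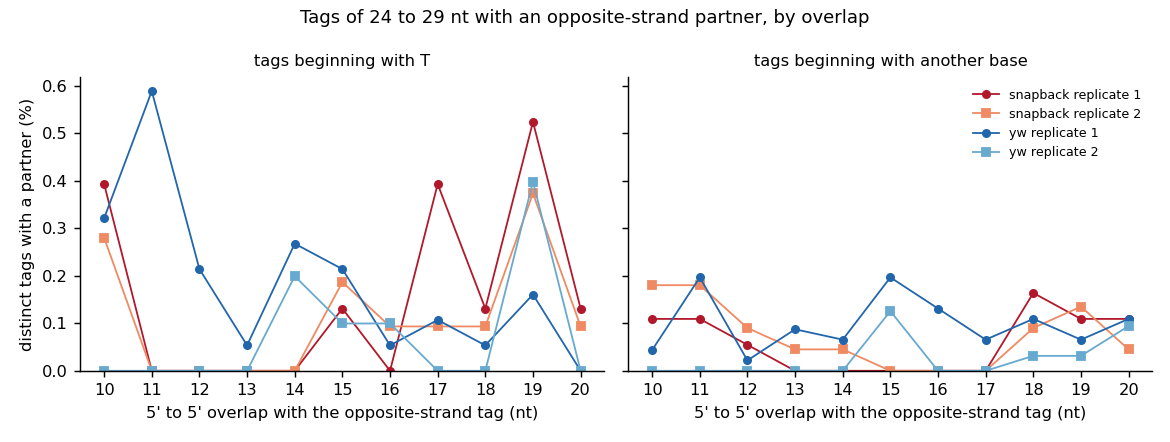
Percent of distinct 24 to 29 nt tags with an opposite-strand tag of 24 to 29 nt in the same library, by the overlap from 5′ end to 5′ end (10 to 20 nt), for tags that begin with T (left) and with another base (right). At an overlap of 10 the tags that begin with T stand at 0.393% and 0.280% in snapback and 0.321% and 0% in yw, within the range of the longer overlaps.

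The 5 pairs with the most reads of the rarer partner at an overlap of 10 were small. Each rests on a match of 10 bases alone, so it may have arisen by chance. The first joined T1373, a 25 nt member with 18 reads in yw replicate 1 only, to a 24 nt tag with 16 reads there. The second joined T285, with 12 and 13 reads in snapback, to a 27 nt tag with 11 and 6 reads. T285 itself was also listed in yw, with 33 and 25 reads, while that partner was not. The third, T871, had 4 and 8 reads in snapback and a partner with 6 and 14 reads. The last of the 5, T458 and T1278, had a partner in yw replicate 1 and in snapback replicate 1, where the rarer tag of the pair had 7 and 5 reads. In all of these 5 pairs the partner began with A, so none had T at both 5′ ends. The partners of T1373 and T458 had the same length and reads, as had those of T285 and T1278, so the pairs may share partners. Among pairs with fewer reads, T1629 and T2829, with 14 and 4 reads in yw replicate 1 only, were each other's partner. That pair had T at both 5′ ends and was counted from both sides.

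Antisense tags of any kind were few. An opposite-strand tag of 18 to 30 nt over a stretch of 15 bases was found for 2 and 14 members in snapback and for 18 and 11 in yw. These members held 0.0188% and 0.140% of member reads in snapback, and 0.250% and 0.294% in yw. Tags with another first base had such a tag in 0.436% and 1.71% of cases in snapback and in 2.01% and 1.79% in yw, against 0.262% and 1.31% of members in snapback and 0.963% and 1.09% in yw. T began a minority of distinct tags, although it led the first bases by reads in snapback. Reads and tags were most numerous at the lower edge of the window. There was no peak of adenine at base 10, and partners at an overlap of 10 were rare. Adenine at base 10 marks the new piRNA of a pair and not its guide, so its share cannot tell whether the tags are piRNAs. That was not tested, and the tags are described here by length and first base.

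A handful of tags held most of the reads. The leading member took 20.7% and 21.9% of member reads in snapback and 40.4% and 38.0% in yw. The 10 leading members together took 69.8% and 59.1% in snapback and 64.4% and 57.5% in yw. Reaching 50% of member reads needed 3 and 5 tags in snapback and 2 and 5 tags in yw. Among tags of other first bases it needed 23 and 19 tags in snapback and 9 and 7 tags in yw. The 100 leading tags took 87.2% and 82.2% of member reads in snapback and 81.1% and 82.2% in yw, against 73.04% and 72.3% of the reads with another first base in snapback and 83.3% and 85.01% in yw. By that measure the members were the less concentrated tags in yw.

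**Figure D5:**
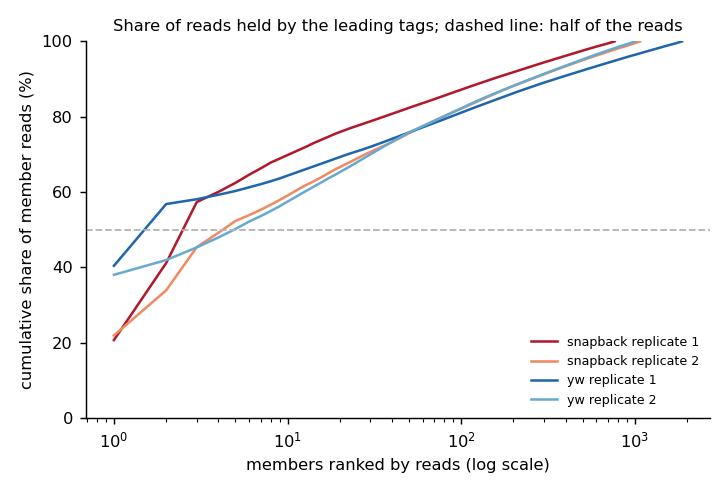
Cumulative percent of member reads against the rank of the members by reads (log scale) in each library. The yw curves start at 40.4% and 38.0% and the snapback curves at 20.7% and 21.9%, and all cross 50% (dashed line) by the fifth tag.

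The leading tag differed between libraries. T3 led in snapback replicate 1, T2 in snapback replicate 2 and T1 in both yw libraries. T1, a 24 nt tag with thymine at base 10 and a GC content of 25%, had 9794 and 7178 reads in snapback and 47872 and 21465 in yw. This was 1837 and 922 RPM in snapback and 2340 and 1414 RPM in yw, so the groups overlap. The edgeR quasi-likelihood test put T1 lower in snapback by a log2 difference of -1.55 ± 0.53 (SE, adjusted p = 0.0238). This call was lost under every alternative fit, with adjusted p-values from 0.0769 to 0.593, such as 0.296 with library totals in place of TMM normalization and 0.186 with DESeq2.

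T1 varied little in its 3′ end. It made up 96.5% and 97.3% of the reads of members that share its first 20 bases in snapback, and 99.7% and 97.4% in yw. T4 took a like share of its own set, at 100% and 100% in snapback and 98.9% and 93.8% in yw. Tags of 24 to 29 nt that share a stretch of 15 bases with the cluster of T1 began with T in 99.3% and 99.005% of reads in snapback and in 99.6% and 99.6% in yw. The tag that holds the first 23 bases of T1 was at 0 RPM in both snapback libraries and at 22.05 and 19.4 RPM in yw. The tag that holds the first 22 bases of T1 went the other way, at 27.8 and 16.6 RPM in snapback and 1.17 and 1.71 RPM in yw.

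T2 and T3, the other leading tags, were far higher in snapback. T2, a 24 nt tag with guanine at base 10, had 7746 and 13129 reads in snapback and 879 and 699 in yw. At 1453 and 1687 RPM in snapback and 43.0 and 46.0 RPM in yw its RPM ratio was 35.3. On the TMM scale of edgeR, its log2 difference was 4.09 ± 0.65 (SE, adjusted p = 0.00154, edgeR). Differences lie lower on this scale than by library totals of the tested tags, with which that of T2 was 4.87. T3, a 28 nt tag, had 9914 and 6861 reads in snapback and 54 and 21 in yw. At 1860 and 882 RPM in snapback and 2.64 and 1.38 RPM in yw its RPM ratio was 681. Its log2 difference was 8.30 ± 0.87 on the TMM scale (SE, adjusted p = 0.00154, edgeR) and 9.20 with library totals of the tested tags. Like T1, T2 and T3 did not pass when any library was left out or with a replicate block, and T2 did not pass without the filter on low counts (adjusted p = 0.229, edgeR).

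T2 and T3 had many overlapping relatives with other starts and other first bases. The cluster of T2, in which members are joined through stretches they share with one another, had 209 members with 117 different starts. Members made up 36.3% and 30.96% of the 24 to 29 nt reads related to this cluster in snapback, and 26.4% and 34.2% in yw, and the rest began with another base. The tags that hold the first 22 bases of T2 were at 2355 and 1380 RPM in snapback and 361 and 467 RPM in yw. In the cluster of T3, with 106 members, members made up 62.9% and 45.0% of related 24 to 29 nt reads in snapback, against 2.79% and 4.21% in yw. Over its members, the cluster of T3 was at 2301 and 1147 RPM in snapback and 42.7 and 79.3 RPM in yw, a 28.3-fold difference.

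T5 and T6 completed the 5 most abundant members in snapback. T5, of 24 nt, had 1130 and 1857 reads in snapback and 21 and 27 in yw, and T6, of 26 nt, had 808 and 2284 reads in snapback and 21 and 13 in yw. T6 contains T2 whole. Both were higher in snapback, by log2 differences of 6.26 ± 0.95 and 6.86 ± 1.01 on the TMM scale (SE, adjusted p = 0.00154 each, edgeR). Neither passed without the filter on low counts, with a library left out or with the block.

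In yw, the tags after T1 were T4, T12, T14 and T21. T4, a 24 nt tag with adenine at base 10, had 50 and 182 reads in snapback and 19406 and 1498 in yw. It was lower in snapback by a log2 difference of -5.95 ± 1.24 (SE, adjusted p = 0.00199, edgeR), but the yw libraries themselves lay far apart at 949 and 98.7 RPM. The tag that holds its first 22 bases was at 0 and 2.70 RPM in snapback and 1672 and 122 RPM in yw. T12, of 26 nt, had 89 and 147 reads in snapback and 1515 and 1123 in yw, and its RPM was 4.16-fold lower in snapback. Its log2 difference was -3.11 ± 0.81 on the TMM scale (SE, adjusted p = 0.00670, edgeR) and -2.32 with library totals of the tested tags. T4 and T12 did not pass without the filter on low counts, with a library left out or with the block.

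T14 and T21, both of 28 nt, were listed in yw replicate 2 alone, with 2219 and 1891 reads, and were not tested. T14 and T21 belong to a cluster of 72 members that held 35.1 and 13.5 RPM in snapback and 28.4 and 690 RPM in yw. Tags of 40 nt that share a stretch with this cluster held 1774 and 823 RPM in snapback and 94033 and 200298 RPM in yw. In yw the members of this cluster thus had far fewer reads than the 40 nt tags that share sequence with them.

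Grouped by their first 20 bases, the sets led by T2, T3, T1, T6 and T5 had the most reads in snapback, and those led by T1, T4, T25, T28 and T14 in yw. The T2 set held 1842 ± 273 RPM in snapback, against 55.6 ± 0.637 RPM in yw (SD, n = 2 each). The T3 set held 1576 ± 767 RPM in snapback, against 14.8 ± 3.10 RPM in yw. The T1 set held 1426 ± 676 RPM in snapback and 1900 ± 634 RPM in yw, less than the spread between replicates. In the T3 set, T3 itself took 87.8% and 85.3% of reads in snapback. In yw, T3 had 54 of 347 and 21 of 191 reads of this set, and the tag with the most reads took only 23.3% and 28.3%. Most reads with this start thus belonged to other tags in yw. In the set of T28, the tag with the most reads in each library took 38.7% and 37.5% in snapback and 37.2% and 38.1% in yw. That tag was not T28 in yw replicate 1, where T28 had 885 of 2629 reads. The level of the set averaged 27.9 ± 1.66 RPM among snapback libraries and 87.6 ± 57.9 RPM among yw libraries (SD, n = 2).

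Joined by shared stretches of 15 bases, the 3138 members formed 745 clusters, of which 426 held a single tag. The 3 leading clusters of each library took 72.1% and 64.4% of member reads in snapback and 64.6% and 64.4% in yw. In the cluster led by T32, a single stretch of 15 bases was present in 173 of 182 members, and the 171 members with at least 6 bases after it had 51 different continuations. In the cluster of T2, the most shared stretch was present in 107 of 209 members, and 105 of them had 47 different continuations. The cluster of T32 held 139 and 539 RPM in snapback and 1.81 and 0 RPM in yw.

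Most member reads were also found as the start of longer tags. The first 24 bases of a member began a 40 nt tag of the same library for 74.6% and 66.5% of member reads in snapback and for 67.5% and 85.3% in yw. Among distinct members this held for 22.5% and 18.4% in snapback and 11.8% and 31.5% in yw. A more abundant tag of 20 to 23 nt with the same start existed for 26.6% and 23.2% of members in snapback and 39.7% and 38.3% in yw. Near copies of abundant tags, with at most 2 substitutions and at least 20 times fewer reads, made up 20.5% and 16.8% of members in snapback and 19.3% and 19.3% in yw. They held 5.58% and 3.92% of member reads in snapback and 7.23% and 7.39% in yw.

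The GC content of distinct members averaged 47.1% and 49.5% in snapback and 47.0% and 45.6% in yw. Weighted by reads it was 43.0% and 48.3% in snapback and 36.1% and 35.9% in yw, where the AT-rich T1 led. Few members ended in CCA, the 3′ end of mature tRNAs. There were 8 and 14 of them with 60 and 100 reads in snapback and 11 and 6 with 226 and 63 reads in yw.

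Between the genotypes, 557 of the 3138 members had enough reads to be tested by edgeR, which was fitted on all tags. Of these, 265 rose and 168 fell in snapback, and 124 did not pass. Over all 30852 tags tested, 79.1% were called, 36.8% higher and 42.3% lower in snapback. For the members these shares were 77.7%, 47.6% and 30.2%, so the share called was near the background. The median log2 difference of the tested members was 1.79, against -0.71 over all tags. For 24 to 29 nt tags with another first base, 529 rose and 471 fell of 1313 tested. Of these, 76.2% were called, and their median log2 difference was -0.03. A tag passes the filter on low counts through the genotype in which it is high, so these counts describe the 557 tags only. With any 1 of the 4 libraries left out, or with a block for replicate number, 0 members were called by edgeR, and without the filter on low counts it called 43, of which 14 were higher and 29 lower in snapback. These losses were not particular to the members. Over all tags, edgeR also called 0 with the block and 5325 of 252353 (2.11%) without the filter on low counts. With only tags of 18 to 30 nt in the fit, 194 of 490 tested members were higher and 190 lower in snapback, where 75.9% of all tested tags were called.

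Of the 433 calls, most came from tags listed in a single genotype. Of the tested members, 211 were listed in snapback only and all were called higher, and 127 were listed in yw only and all were called lower. These tags passed the filter through the genotype that lists them and entered as 0 in the other. Their calls were thus largely set by the choice of tags and are no trait of the members. Of the 219 listed in both genotypes, 54 rose, 41 fell and 124 did not pass, with a median log2 difference of 0.04.

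The 10 largest rises by fitted log2 difference among members of at least 10 RPM were all unlisted in yw. This follows from the ranking, because unlisted tags enter the fit as 0. They thereby rank above tags with reads in both genotypes, such as T3 at 8.30. None of these 10 calls held with a library left out or with the block. T7, of 25 nt, had 1298 and 815 reads in snapback, or 244 and 105 RPM, and was at least 530-fold higher there than 3 reads per yw library allow. T30 and T33, with 236 and 154 and with 122 and 244 reads in snapback, were at least 100.2-fold and 116-fold higher. T55, which contains T2, was at least 80.7-fold higher. Of the other 6, T32, T49, T50, T54 and T59 belong to the cluster led by T32, and T51 does not. These 6 were at least 31.3-fold to 76.0-fold higher in snapback, and all had fewer reads in snapback replicate 1, from 33 to 80, than in replicate 2, from 228 to 312.

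The 10 largest falls, ranked the same way, were all unlisted in snapback. T25, of 24 nt, had 1166 and 430 reads in yw, or 57.0 and 28.3 RPM, and was at least 50.3-fold lower in snapback. T56 and T78, of 25 nt, both contain T25 and were at least 24.2-fold and 17.7-fold lower in snapback. T37 had 674 and 284 reads in yw and was at least 33.2-fold lower in snapback. The remaining 6, T39, T64, T85, T88, T104 and T106, were at least 1.65-fold to 13.1-fold lower, bounds set by the yw library with fewer reads. T106 had 19 and 324 reads in yw, and T104, with 66 and 295, belongs to the cluster of T14.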

How the data were processed

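Small RNA libraries from whole male larvae, 2 snapback and 2 yw, were analysed. Per the labels' protocols, RNA came from larvae homogenized in Qiazol, its small fraction was enriched with a Qiagen miRNeasy kit, and libraries were made with Illumina's TruSeq small RNA kit. The authors deposited, per the file headers, a read count for each distinct tag. These counts are whole numbers without normalization, the lowest is 4, and tags are 10 to 34 or 40 nt long. The submitters' processing notes name the build dm3. How adapters were trimmed is not stated there. No genome sequence was used, so strands and partners were read from tag sequences alone.

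The members and lists were chosen with earlier results of these data known. Tables were joined on the exact tag, with unlisted tags as 0. RPM is reads per 1000000 listed reads. Clusters join members that share an exact stretch of 15 bases. Tags were tested with edgeR 4.0.16 in R 4.3.3 (quasi-likelihood, TMM, filterByExpr, Benjamini-Hochberg over all tags, threshold 0.05), with DESeq2 1.42.0 as an alternative. Fits with library totals in place of TMM used the totals of the tested tags. SE is the log2 difference over the square root of F. Both steps were tested on simulated data. The main comparison had no block, because the labels attach no batch to a replicate number. Bounds for unlisted tags divide the lowest library value by the highest value of 3 reads per library in the other group.

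Tags named in the text are the 5 with the highest mean RPM in each group, the 10 largest rises and falls among called members of at least 10 RPM in the higher group without overlap, the leads of the 5 largest sets with the same first 20 bases in each group, and the 5 leading overlap pairs. The continuations in the clusters of T32 and T2 were described after their values were seen.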

Additional observations from a re-analysis of the deposited data

How the results depend on the processing

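The summed level, a log2 difference of 0.81, became -0.13 over reads of 18 to 30 nt and 2.22 over these without reads related to the dominant tag. It was 0.40 for 23 to 29 nt, 1.45 for 25 to 28 nt, 1.68 with no tag left out and 1.19 without the leading member. Leaving out 1 library gave 0.53 to 1.17, and the replicate block 0.84. The difference in mean length, 0.721 nt, was 0.103 nt without the leading member and 0.426 to 1.02 nt without 1 library. The difference in adenine at base 10, -7.49 percentage points, was -11.7 by reads, -10.2 for 25 to 28 nt, -3.40 by first 20 bases and -6.66 without near copies of abundant tags, and -7.93 to -7.05 without 1 library. The difference in the share of the leading member, -17.9 points, was -14.8 with the same first 20 bases summed and 3.52 for the 10 leading members, and -19.1 to -16.7 without 1 library. The difference at an overlap of 10, 0.176 points, was -0.00234 with partners from any library and 0.0154 to 0.336 without 1 library, the lowest without yw replicate 2 and the highest without yw replicate 1. The ratio to the median of longer overlaps had no value because that median was 0% in yw replicate 2.

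The 433 called members were 43 without the low-count filter (14 higher, 29 lower). Over all tags, 2.11% were called without that filter, against 79.1% with it. The share of called members that rose was 61.2%, 50.5% with only tags of 18 to 30 nt in the fit and 72.5% when tags related to the dominant one were also left out. The median log2 difference of all tags was 0.09 without TMM. edgeR called 0 members when any library was left out, where the lone library of a genotype is assumed to vary like the other pair. Calls over all tags were lost in these fits too. They tested 884 and 801 members without the first and second snapback library, and 622 and 696 without the first and second yw library. The main fit tested 557. Same-numbered libraries had a correlation of deviations of 0.03. With 2 libraries per genotype this is a single comparison, so it cannot tell whether the numbers mark a shared batch. With the replicate block, edgeR called 0 members and 0 of all tags, with 237 members at an unadjusted p under 0.05. Of 27 tested named tags, 6 (T1, T2, T4, T5, T6 and T12) no longer passed without the low-count filter, and none passed with a library left out or with the block. Of these alternatives, leaving out near copies was chosen after seeing the data, as were 4 others that changed no direction: members of at least 1 RPM (-7.59 points of adenine), longer overlaps subtracted (0.189 points), the 5 leading clusters left out (0.63 in log2) and the cluster of T14 left out (427 calls). The causes of these changes were not tested. The minimum of 4 reads limits what can be said of unlisted tags.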
